A study of Mus musculus with 6 samples.

Results

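To determine how transcripts of the Polycomb machinery responded to loss of Pbrm1 in uterine stroma, the 10 subunit genes Ezh1, Ezh2, Eed, Suz12, Jarid2, Bmi1, Ring1, Rnf2, Cbx2 and Cbx7 were examined in RNA-seq libraries of primary stromal cells. The genes were chosen by name, as subunits of both Polycomb complexes, with earlier results of these data known. They are 10 of 54232 genes in the count table, 28552 of them with any count, and all 10 were among the 17474 genes tested. The comparison was of 3 WT and 3 Pbrm1 cKO libraries, prepared from stromal cells on day 4 (D4) of pseudopregnancy. Per the study's methods, Pbrm1 cKO females carried homozygous floxed Pbrm1 alleles and PR-IRES-cre, so that deletion takes place wherever the progesterone receptor promoter is active, uterine epithelium included. Controls are labelled WT, but in the study's methods they are Pbrm1 fl/fl mice. The mice were 8 to 12 weeks old, and 5 to 10 uterine horns were digested for a preparation, so a library may hold RNA of several animals. Cells were filtered, plated for some hours in serum and then harvested, and no sort is described for either group. The study calls the replicates of its sequencing tracks biological, and the labels do not say whether they were separate cultures or sets of animals, so the p-values measure the spread between these samples.

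Polycomb group proteins keep developmental genes silent. Polycomb repressive complex 2 (PRC2) methylates histone H3 to give the H3K27me3 mark, and Polycomb repressive complex 1 (PRC1) ubiquitinates histone H2A and, in its canonical form, binds that mark and compacts chromatin. The SWI/SNF remodelers, to which PBRM1 belongs, are known as antagonists of Polycomb in flies and mammals. Ezh2 is generally high in dividing cells, and the endometrial stroma, which proliferates before it decidualizes, is known to change its Ezh2 level as it differentiates.

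Total counts ranged from 13253575 to 18338667 per library. Pbrm1 itself had normalized counts (counts divided by a size factor for each library) of 1354, 1385 and 1677 in the WT libraries and of 397, 459 and 451 after deletion, a log2 fold change of -1.76. WT replicate 1 stood apart from the other WT libraries. Over genes, its median squared difference was 5.42 and 7.96 times the counting noise against WT replicates 2 and 3, compared with 3.68 between those replicates and 1.55 to 2.54 among Pbrm1 cKO libraries. Several values without that library are therefore given beside the results. Stromal markers were abundant in every library, with summed normalized counts of 103591 to 117962 in WT and 77805 to 83295 in Pbrm1 cKO, and 8 of 13 were lower and 1 higher in Pbrm1 cKO. Leukocyte markers had sums of 4324 to 9430.2 in WT and 40234 to 41816 in Pbrm1 cKO, and 12 of the 13 tested were higher (2 of 15 were at or near 0 in every library, the B cell marker Ms4a1 and the cytotoxic marker Nkg7). Epithelial markers had sums of 1929 to 3371 in WT and 3708 to 3854 in Pbrm1 cKO, with 5 of 11 tested higher and the gland marker Foxa2 near 0. Endothelial sums were 1772 to 5037 in WT and 1645 to 1828 in Pbrm1 cKO (1 higher and 4 lower of 10), and smooth muscle sums were 55319 to 59761 and 53387 to 55465 (3 lower of 7 tested, Myocd near 0). The low end of the WT sums was WT replicate 1 for leukocyte, epithelial and endothelial markers, and its endothelial sum of 1772 lay within the Pbrm1 cKO range, beside 5037 and 4388 in WT replicates 2 and 3. The part of this shift in cell makeup in the values below was not tested, and in bulk RNA fewer cells of a type and less RNA per cell cannot be told apart.

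Of the 10 subunits, 2 were higher in Pbrm1 cKO (Ezh1 and Jarid2), 2 were lower (Rnf2 and Cbx2) and 6 did not pass the test, at an adjusted p threshold of 0.05 in DESeq2. Over all genes tested, 31.1% were called, 15.9% higher and 15.2% lower, so that 4 of 10 is near the background share. The median log2 fold change of the subunits was -0.09, beside -0.0007 over all genes, and 5 of the 10 had groups that did not overlap, beside 48.6% of all genes. Members moved in both directions, as shown in the plot of normalized counts by library.

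**Figure D1:**
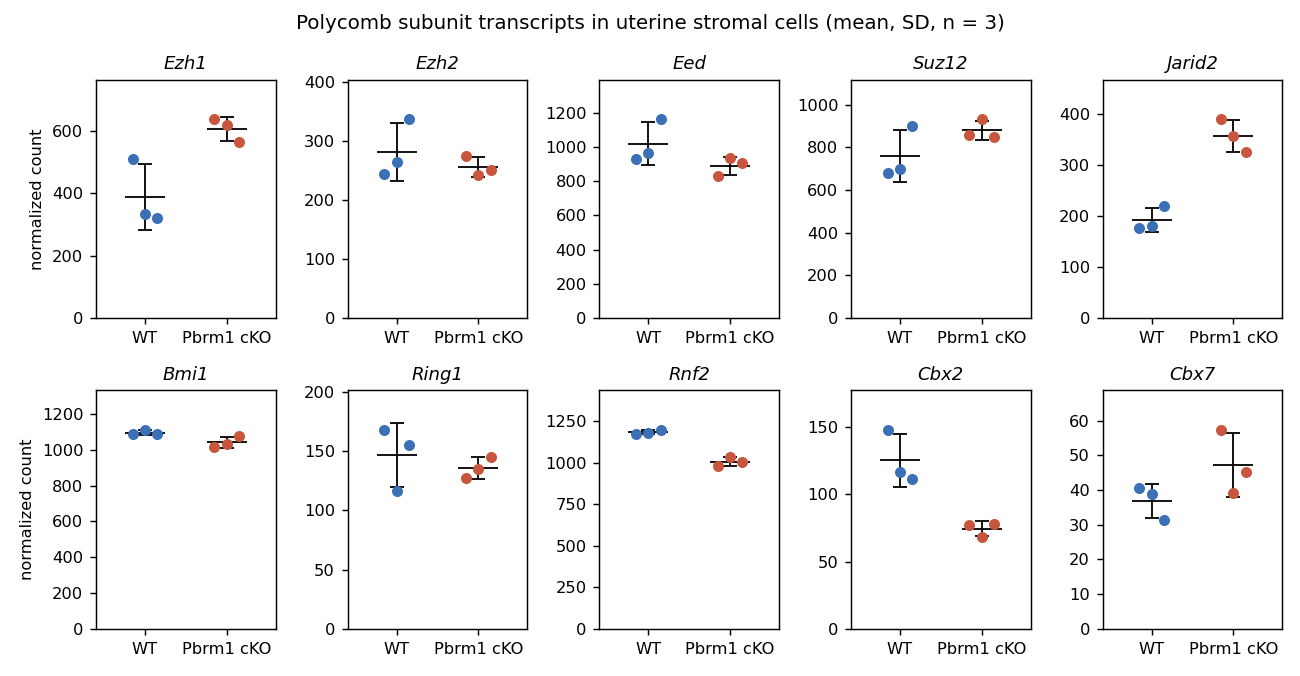
Normalized counts (vertical axes, starting at 0) of the 10 Polycomb subunit genes in each WT (blue) and Pbrm1 cKO (red) library, points in replicate order, with the group mean (long bar) and SD (whiskers, n = 3). Ezh1 and Jarid2 sit higher in Pbrm1 cKO, Cbx2 and Rnf2 lower, and the groups overlap for Ezh2, Eed, Suz12, Ring1 and Cbx7.

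The catalytic subunit of PRC2 is either EZH1 or EZH2, which share the same place in the complex. EZH2 is the stronger methyltransferase and EZH1 is known for its prominence in cells that do not divide. Sequence around the annotated starts is shown here for the PRC2 genes among the 10 subunits with a match to an E2F-type sequence, since E2F factors drive genes of S phase, and for the 2 subunits that rose. E2F-type sequences were TTTCCCGC, TTTGGCGC and TTTCGCGC, searched on both strands from 250 bases before to 50 bases after each RefSeq start (GRCm38.p6). Capitals mark the E2F-type sequence in Ezh2 (chr6:47595020-47595047, minus strand, 17 bases before to 11 after the start) and Suz12 (chr11:79992867-79992914, plus strand, upstream of the gene):
Ezh2: atggcgattgggttgctgcgTTTGGCGC
Suz12: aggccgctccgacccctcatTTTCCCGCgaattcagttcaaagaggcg

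For comparison, the 2 most changed proliferation genes, Cdc6 (chr11:98907993-98908040, plus strand), which loads the replicative helicase, and Cdk1 (chr10:69353016-69353063, minus strand), the mitotic kinase, hold such sequences upstream of their starts. Capitals again mark the E2F-type sequence, which Cdc6 carries in the reverse orientation:
Cdc6: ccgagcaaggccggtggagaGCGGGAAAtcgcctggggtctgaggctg
Cdk1: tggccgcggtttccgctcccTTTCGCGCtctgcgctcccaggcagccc

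In Ezh1 (chr11:101226464-101226613, minus strand) and Jarid2 (chr13:44730624-44730773, plus strand), the 150 bases before a RefSeq start held none of the 3 sequences. Jarid2 has another RefSeq start downstream, whose window (chr13:44731021-44731320) held none either. The RefSeq starts of Jarid2 and Ezh2 lie inside the genes as the count table gives them. Capitals mark CG dinucleotides, which are dense at promoters that Polycomb complexes can occupy:
Ezh1: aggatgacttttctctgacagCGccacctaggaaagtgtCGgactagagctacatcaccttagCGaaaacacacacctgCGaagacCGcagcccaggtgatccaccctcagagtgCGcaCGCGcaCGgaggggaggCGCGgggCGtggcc
Jarid2: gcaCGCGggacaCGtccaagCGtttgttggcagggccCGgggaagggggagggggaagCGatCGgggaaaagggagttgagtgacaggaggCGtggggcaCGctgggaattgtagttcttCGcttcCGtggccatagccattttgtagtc

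Promoter windows were found for 9 of the 10 subunits. An E2F-type sequence lay in 2 of them (22.2%), compared with 2.12% of 27025 genes with a promoter window. It lay in 9 of 23 proliferation genes (39.1%). Among the other Polycomb lists described below, it lay in 1 of 7 PRC2 genes with a window. The share was 0 of 8 for canonical PRC1, 0 of 10 for variant PRC1 and 0 of 5 for genes that oppose Polycomb. The windows of the subunits held 17 to 41 CG dinucleotides (median 27), beside a median of 7 over all promoters. Every E2F-type sequence searched contains CG, and matches were not compared among windows of like CG content. The contrast with all genes therefore cannot be read as a trait of Polycomb genes. The E2F-type matches describe the sequence and do not show binding.

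Ezh1 (ENSMUSG00000006920.14, chr11:101191115-101226463, minus strand) was higher in Pbrm1 cKO. WT libraries had normalized counts of 509.8, 333 and 321 (here and below in the order of the replicate numbers), whereas Pbrm1 cKO libraries had 635, 618 and 563. All Pbrm1 cKO libraries lay above all WT libraries, and WT replicate 1 was the WT library nearest to them. The means were 388 ± 106 and 605 ± 37.7 (SD, n = 3), a 1.56-fold difference (log2 fold change 0.64, SE 0.18, DESeq2 adjusted p = 0.00237). Without WT replicate 1 the log2 fold change was 0.89, the highest with 1 library left out, and the lowest was 0.52.

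Ezh2 (ENSMUSG00000029687.16, chr6:47530139-47595341, minus strand) did not pass the test. Normalized counts of 244, 264 and 336 in WT and 274, 242 and 251 in Pbrm1 cKO overlapped, with WT replicate 3 the highest. The means were 281 ± 48.6 and 256 ± 16.5 (SD, n = 3), with a log2 fold change of -0.14 (SE 0.17, 95% interval -0.47 to 0.19, DESeq2 adjusted p = 0.605). The sign rested on a single library, since the value was 0.0069 without WT replicate 3, and it was -0.23 without WT replicate 1. Of the 9 proliferation genes with an E2F-type match, 7 were lower, led by Cdc6 (-2.97) and Cdk1 (-2.7). Of the others, 1 was higher (E2f2, with at most 3 counts in each WT library) and 1 was not called (Cdt1, at -0.35). Over the whole proliferation list, with or without a match, 28 of 30 genes were lower, beside 15.2% of all genes tested.

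Within each library, the ratio of Ezh2 to Ezh1 per kb of gene length was 0.533, 0.884 and 1.17 in WT and 0.481, 0.437 and 0.498 in Pbrm1 cKO. All Pbrm1 cKO ratios were below all WT ratios. The mean log2 ratio differed by -0.80 (exact two-sided permutation test, p = 0.1, the smallest that 3 against 3 libraries can give; adjusted over 4 pairs of subunits, 0.2), and by -1.11 without WT replicate 1 and -0.54 without WT replicate 3. As a share of Ezh1 and Ezh2 together, Ezh1 made up 54.8% ± 9.67 in WT (SD, n = 3) and 68.0% ± 1.47 in Pbrm1 cKO (n = 3). In WT replicate 1 that share was 65.3%, close to the Pbrm1 cKO range of 66.8% to 69.6%.

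The core partners of the enzyme did not pass the test. EED binds the H3K27me3 mark and stimulates the enzyme. Eed (chr7:89954654-89980983) had normalized counts of 927, 966 and 1159.9 in WT and 832, 933 and 906 in Pbrm1 cKO, with overlap between the groups (log2 fold change -0.19, 95% interval -0.43 to 0.05, DESeq2 adjusted p = 0.252), and its log2 fold change was -0.09 without WT replicate 3. SUZ12 is the scaffold on which the complex assembles. Suz12 (chr11:79993106-80034123) had 678, 698 and 902 in WT and 857, 930.1 and 850.1 in Pbrm1 cKO, and WT replicate 3 lay among the Pbrm1 cKO values (0.21, 95% interval -0.06 to 0.48, DESeq2 adjusted p = 0.253). Without WT replicate 3 its log2 fold change was 0.35 with a DESeq2 adjusted p of 0.00705, and without WT replicate 1 it was 0.14 (0.475).

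JARID2 is an accessory subunit that, with AEBP2, helps PRC2 to bind chromatin that already carries ubiquitinated H2A. Jarid2 (ENSMUSG00000038518.15, chr13:44729474-44921643, plus strand) rose the most of the 10 subunits. Its normalized counts were 177, 181 and 219 in WT and 389.7, 356 and 326 in Pbrm1 cKO, with no overlap and a wide gap between the groups. The means were 193 ± 23.3 and 357 ± 32.1 (SD, n = 3), a 1.85-fold difference (log2 fold change 0.89, SE 0.16, DESeq2 adjusted p = 3.1e-07). Of all genes tested, 20.6% had a log2 fold change of that size or more in either direction.

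The RING proteins are the H2A ubiquitin ligases of every PRC1 complex. Rnf2 (chr1:151458004-151500955), the gene for RING1B, had normalized counts of 1174, 1179.7 and 1197 in WT and 979, 1033 and 1005 in Pbrm1 cKO. The groups did not overlap, and the spread within each was small. The means were 1183 ± 11.9 and 1006 ± 27.2 (SD, n = 3), or 85.0% of WT (log2 fold change -0.23, SE 0.09, DESeq2 adjusted p = 0.0359). This call was lost in 9 of 14 alternative analyses, among them the omission of any library but WT replicate 1 (adjusted p = 0.0531 to 0.189), with a log2 fold change of -0.25 to -0.21 over all 14. Ring1 (chr17:34020792-34024680) had 168, 117 and 156 in WT and 127, 135 and 145 in Pbrm1 cKO, all Pbrm1 cKO values lying within the WT range (-0.11, 95% interval -0.51 to 0.29, DESeq2 adjusted p = 0.753), and its log2 fold change was -0.0037 without WT replicate 1. Rnf2 exceeded Ring1 per kb in every library, by 5.50, 7.96 and 6.04 times in WT and 6.04, 6.01 and 5.43 times in Pbrm1 cKO, and the mean log2 ratio differed by -0.14 (exact two-sided permutation test, p = 0.5, adjusted 0.5).

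BMI1 is a PCGF protein that pairs with a RING protein in canonical PRC1. Bmi1 (chr2:18677018-18686629) had normalized counts of 1090.2, 1109.8 and 1089.6 in WT and 1017, 1035 and 1076 in Pbrm1 cKO. The groups did not overlap, but the difference of -0.07 on the log2 scale did not pass the test (95% interval -0.25 to 0.11, DESeq2 adjusted p = 0.621). Its alternative Pcgf2 was far lower per kb, with Bmi1 to Pcgf2 ratios of 13.1, 10.1 and 13.2 in WT and 10.4, 11.3 and 11.3 in Pbrm1 cKO (difference of the mean log2 ratio -0.13, exact two-sided permutation test, p = 0.4, adjusted 0.5). Without WT replicate 2 that difference was -0.26, and without WT replicate 3 it was -0.07.

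CBX proteins carry the chromodomain through which canonical PRC1 reads H3K27me3. Cbx2 (ENSMUSG00000025577.7, chr11:119022962-119031270, plus strand) fell. It had normalized counts of 148, 117 and 111 in WT and 77.0, 67.9 and 77.9 in Pbrm1 cKO, with no overlap. The means were 125 ± 19.6 and 74.2 ± 5.50 (SD, n = 3), or 59.3% of WT (log2 fold change -0.76, SE 0.23, DESeq2 adjusted p = 0.0040). Without Pbrm1 cKO replicate 2 the adjusted p was 0.0530 at a log2 fold change of -0.69, and without WT replicate 1 it was 0.0410 at -0.62. Cbx7 (chr15:79915807-79971119), known for silencing the Ink4a locus, was the lowest of the subunits per kb. It had normalized counts of 40.6, 38.8 and 31.4 in WT and 57.2, 39.2 and 45.0 in Pbrm1 cKO, and the groups overlapped (0.35, 95% interval -0.30 to 0.99, DESeq2 adjusted p = 0.479). With 1 library left out its log2 fold change ran from 0.19 to 0.47. The ratio of Cbx2 to Cbx7 per kb was 5.53, 4.57 and 5.41 in WT and 2.05, 2.64 and 2.63 in Pbrm1 cKO. Every Pbrm1 cKO ratio was below every WT ratio, with a mean log2 difference of -1.09 (exact two-sided permutation test, p = 0.1, adjusted 0.2).

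Levels per kb of gene length ordered the subunits from most to least abundant. In WT the order was Rnf2 at 287, Bmi1 at 276, Eed at 266, Suz12 at 154, Ezh1 at 52.1, Ring1 at 45.2, Ezh2 at 42.1, Cbx2 at 29.4, Jarid2 at 19.8 and Cbx7 at 5.69 normalized counts per kb (means, n = 3). Neighbours whose libraries overlapped were Bmi1 and Eed, Ezh1 and Ring1, and Ring1 and Ezh2. In Pbrm1 cKO the order was Bmi1 at 262, Rnf2 at 244, Eed at 233, Suz12 at 178, Ezh1 at 81.4, Ring1 at 41.9, Ezh2 at 38.3, Jarid2 at 36.8, Cbx2 at 17.4 and Cbx7 at 7.27. There the overlapping neighbours were Rnf2 and Eed, Ring1 and Ezh2, and Ezh2 and Jarid2. Per kb, Jarid2 thus stood below Cbx2 in every WT library and above it in every Pbrm1 cKO library. Ezh1 per kb separated from Ring1 only in Pbrm1 cKO. These statements depend on the division by gene length. In undivided normalized counts, Jarid2 was above Cbx2 in every WT library too (177, 181 and 219 against 148, 117 and 111). Ezh1 was likewise above Ring1 in every WT library (510, 333 and 321 against 168, 117 and 156).

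The genes whose levels followed Ezh2 most closely over the 6 libraries were Gm16485 (Pearson r of log2 values 0.993), Map2 (0.980) and N4bp2 (0.974), and 52 of 10985 genes reached 0.9. For Ezh1 they were Sympk (0.999), Rbm19 (0.998) and Ppp6r3 (0.997), and 874 genes reached 0.9. These values share libraries, depth and the difference between the groups, and are given as a description.

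Other subunits of the same complexes were examined next, in lists made from general knowledge. Of 30 such genes in 3 lists, 6 were higher, 7 lower and 17 not called. With the 10 subunits this makes 8 higher and 9 lower of 40 (42.5% called, beside 31.1% of all genes tested, 15.9% higher and 15.2% lower). These counts were not tested against that share, and genes that oppose Polycomb were kept as a list of their own.

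Among 8 other PRC2 genes, 1 was higher, 3 lower and 4 not called. Aebp2, the partner of Jarid2 in the same form of PRC2, rose from 786, 711 and 988 in WT to 1295, 1327 and 1270.4 normalized counts in Pbrm1 cKO, without overlap (log2 fold change 0.65, SE 0.13, DESeq2 adjusted p = 1.44e-05). Phf19 and Mtf2 encode Polycomb-like proteins, which mark the other form of PRC2 and help it to bind CG-rich DNA, and these genes fell. Phf1, also a Polycomb-like gene, and Epop and Lcor, also of that form, did not pass the test (values below). Phf19 had 28.9, 17.8 and 25.9 in WT and 5.92, 3.20 and 5.63 in Pbrm1 cKO (-2.32, SE 0.60, DESeq2 adjusted p = 0.000737), and its promoter window held TTTCCCGC. Mtf2 had 635, 701 and 767 in WT and 542, 551 and 537 in Pbrm1 cKO (-0.37, SE 0.12, DESeq2 adjusted p = 0.00836). The histone-binding gene Rbbp7 fell by 0.27 (DESeq2 adjusted p = 0.0324). Rbbp4 (-0.19), Phf1 (0.07, and 0.27 without WT replicate 1), Epop (-0.33) and Lcor (0.30) did not pass. With any Pbrm1 cKO library left out, Mtf2 (DESeq2 adjusted p = 0.0551 to 0.0615) and Rbbp7 (0.104 to 0.177) were no longer called, nor was Rbbp7 without WT replicate 3 (0.0693), whereas Rbbp4 was called lower without WT replicate 1 (-0.28, 0.0178) and was at -0.07 without WT replicate 3 (0.639). Once the trend of counts with gene length was removed, Rbbp7 was not called (-0.22, DESeq2 adjusted p = 0.0936) and Rbbp4 was called lower (-0.31, 0.0441).

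The makeup of PRC2 accessory transcripts differed accordingly, as the stacked shares per library show. Jarid2 and Aebp2 together made up 29.4%, 29.0% and 34.0% of the normalized count per kb of 7 accessory genes in WT and 45.8%, 43.9% and 45.5% in Pbrm1 cKO. Mtf2 made up 36.6% ± 3.01 in WT (SD, n = 3) and 25.5% ± 0.804 in Pbrm1 cKO (n = 3). The share of Phf1 was 16.2% ± 3.72 in WT and 15.2% ± 1.48 in Pbrm1 cKO. The families were set up after values had been seen and were not tested.

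**Figure D2:**
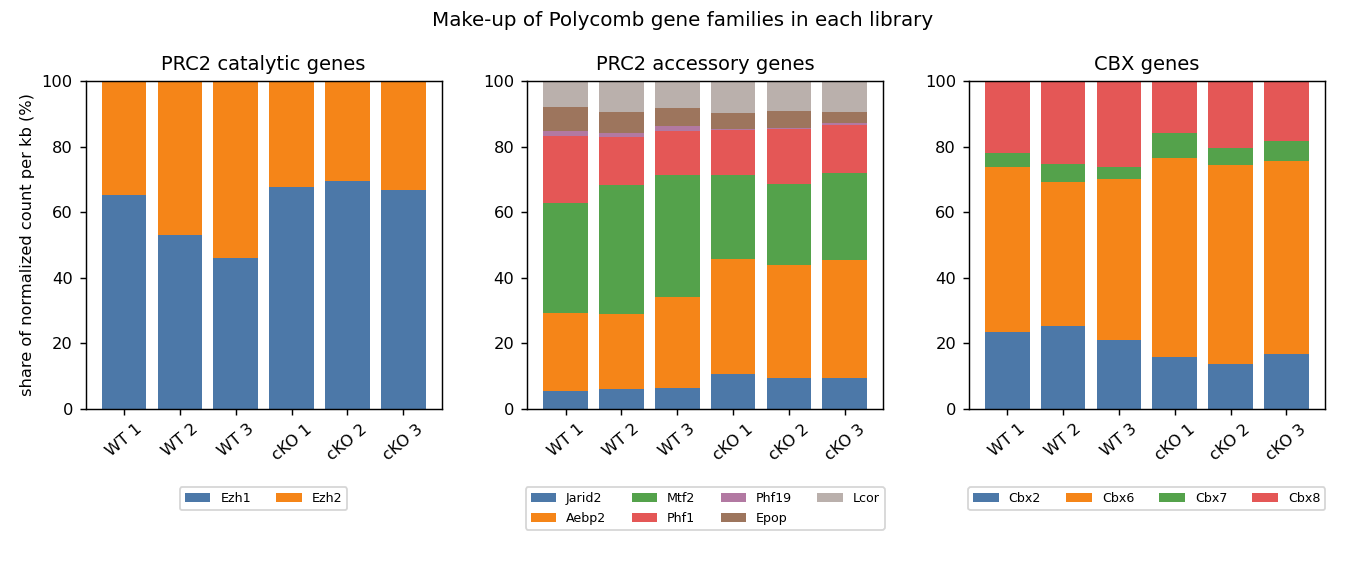
Share of the normalized count per kb (vertical axis, %) of each gene in 3 Polycomb gene families, 1 stacked bar per library. Jarid2 and Aebp2 take 43.9% to 45.8% of accessory transcripts in Pbrm1 cKO beside 29.0% to 34.0% in WT, Cbx2 takes 15.4% of the transcripts of 4 CBX genes beside 23.2% (means), and Ezh1 in WT replicate 1 is close to the Pbrm1 cKO libraries.

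Among 8 other canonical PRC1 genes, 2 were higher, 1 lower and 5 not called. The lower gene encodes a CBX protein, like Cbx2. Cbx8 had normalized counts of 119.7, 101 and 120.0 in WT and 66.1, 87.1 and 73.2 in Pbrm1 cKO (log2 fold change -0.59, SE 0.23, DESeq2 adjusted p = 0.0345). Cbx6 did not pass at 0.16, and was at 0.32 without WT replicate 1, at 0.0021 without WT replicate 2 and at 0.01 with the length trend of counts removed (DESeq2 adjusted p = 0.0519, 0.994 and 0.970). The Polyhomeotic genes, whose proteins polymerize and cluster canonical PRC1, had Phc2 higher by 0.56 (DESeq2 adjusted p = 1.37e-07) and Phc3 by 0.30 (0.0318), but Phc3 was at 0.07 once the trend of counts with gene length was removed. Phc1, Scmh1 and Pcgf2 did not pass. The call of Cbx8 was lost without WT replicate 1 or 3 or Pbrm1 cKO replicate 1 or 3 (DESeq2 adjusted p = 0.0974 to 0.183), and that of Phc3 with any library but WT replicate 1 left out (0.0631 to 0.158).

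Among 14 genes of variant PRC1, which lacks the Polycomb CBX proteins, 3 were higher, 3 lower and 8 not called. RYBP and YAF2 take the place of CBX proteins and are alternatives to each other. Rybp had normalized counts of 139, 135 and 158 in WT and 291, 291 and 226 in Pbrm1 cKO, without overlap (log2 fold change 0.90, SE 0.18, DESeq2 adjusted p = 5.22e-06). Yaf2 had 589, 727 and 700.5 in WT and 464, 514 and 589 in Pbrm1 cKO, and was called lower although WT replicate 1 and Pbrm1 cKO replicate 3 coincided (-0.36, SE 0.14, DESeq2 adjusted p = 0.0340). The share of Rybp in the pair was 7.85% ± 0.881 in WT (SD, n = 3) and 17.1% ± 3.50 in Pbrm1 cKO (n = 3), so that Yaf2 was the more abundant in both groups. E2f6, a repressor of the E2F family that recruits variant PRC1, fell by 0.38 (DESeq2 adjusted p = 0.000643), and its complex partner Pcgf6 by 0.35 (0.0467). Pcgf3 and the corepressor Bcor were higher by 0.25 (0.0268) and 0.32 (0.0338), and were at 0.12 and 0.20 and not called once the trend of counts with gene length was removed. The same step ended the calls of Yaf2 (-0.28, DESeq2 adjusted p = 0.0886) and Pcgf6 (-0.28, 0.108), while Pcgf5 and Bcorl1 were then called lower, so that only 1 of the 3 lower genes, E2f6, was shared. Leaving out any library ended the call of Pcgf6 (DESeq2 adjusted p = 0.0723 to 0.199). The same held for Pcgf3 with WT replicate 2 or any Pbrm1 cKO library (0.0657 to 0.165), and for Yaf2 (0.0858 to 0.217) and Bcor (0.111 to 0.173) with WT replicate 2 or 3 or Pbrm1 cKO replicate 1 or 2.

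Of 7 genes for enzymes that remove Polycomb marks and for their ASXL cofactors, 2 were higher, 0 were lower and 5 were not called, a share of 2 in 7 that is near the 31.1% called over all genes. In edgeR and limma the number lower was also 0, and 0 of the 7 genes had a negative log2 fold change with an unadjusted p under 0.05. Kdm6b, an H3K27 demethylase, had normalized counts of 211, 232 and 254 in WT and 431, 405 and 401 in Pbrm1 cKO (log2 fold change 0.83, SE 0.14, DESeq2 adjusted p = 5.82e-08). Asxl1, a cofactor of the H2A deubiquitinase BAP1, had 648, 496 and 549 in WT and 896, 792 and 789 in Pbrm1 cKO (0.55, SE 0.13, DESeq2 adjusted p = 0.000314). The other demethylase gene Kdm6a (0.08), Bap1 (0.02), the deubiquitinase gene Usp16 (0.12), Asxl2 (-0.03) and Asxl3 (-0.45) did not pass.

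**Figure D3:**
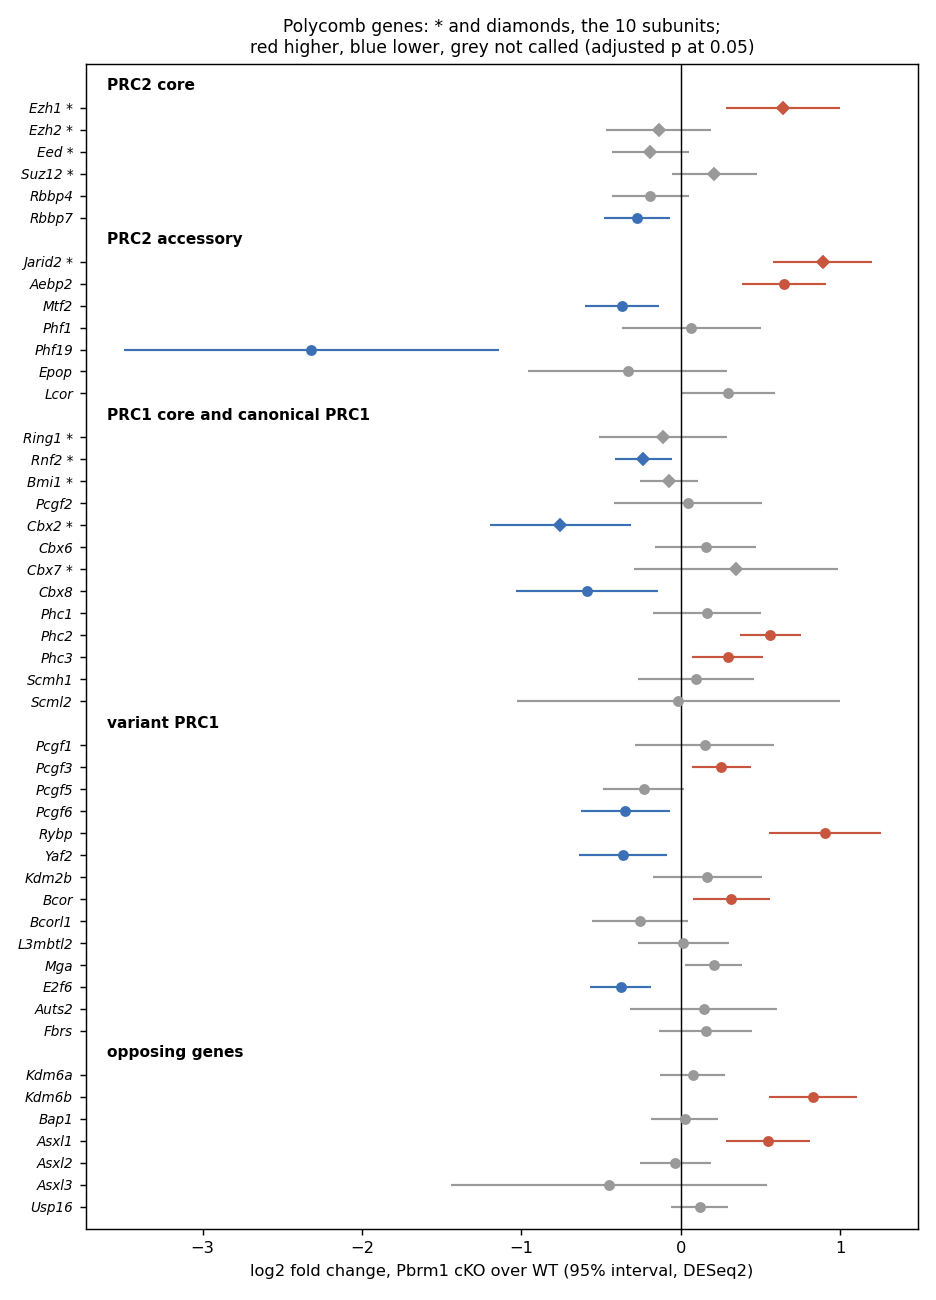
Log2 fold change of Pbrm1 cKO over WT (horizontal axis) with its 95% interval for the 10 subunits (diamonds, asterisks), other genes of the complexes and genes that oppose them, 47 genes in all. Red marks the 10 genes called higher, blue the 9 called lower, and grey the 28 that did not pass.

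Genes that Polycomb commonly silences were read beside its subunits. Of 37 such targets, mostly developmental transcription factors, 27 had no count or at most 3 counts in every library, Cdkn2a among them. Of the 8 that were tested, 1 was higher, 1 was lower and 6 did not pass, beside 15.9% higher and 15.2% lower over all genes tested. Wnt7b, a Wnt ligand of uterine epithelium, had normalized counts of 24.6, 38.8 and 29.2 in WT and 166, 169 and 174 in Pbrm1 cKO (log2 fold change 2.46, SE 0.25, DESeq2 adjusted p = 1.32e-20). Of 11 epithelial markers tested, 5 were higher, with Ltf (2.84) and Krt19 (1.38) the most, and 6 did not pass. Their log2 fold changes ran from -0.27 (Krt18) to 2.84 with a median of 0.56, and their part in the Wnt7b value was not tested. Bmp7, a bone morphogenetic protein, fell by 0.59 (DESeq2 adjusted p = 0.0042; not called without WT replicate 2). Tbx1 and Dlx5 had 0 or 1 count in each WT library and 2 to 6 in each Pbrm1 cKO library and were not tested.

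Proliferation genes, read because Ezh2 is tied to cell division elsewhere, were lower in Pbrm1 cKO. Of 30, 28 were lower, 1 was higher and 1 did not pass, with summed normalized counts of 21347 to 22234 in WT and 12444 to 12735 in Pbrm1 cKO. The median log2 fold change was -1.02, beside -0.98 for Mki67, -0.66 for the replication clamp gene Pcna and -0.70 for E2f1, whose call held with WT replicate 2 left out and with no other library omitted. E2f2, the gene called higher, had raw counts of only 2, 2 and 3 in the WT libraries, against 13, 24 and 11 after deletion.

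**Figure D4:**
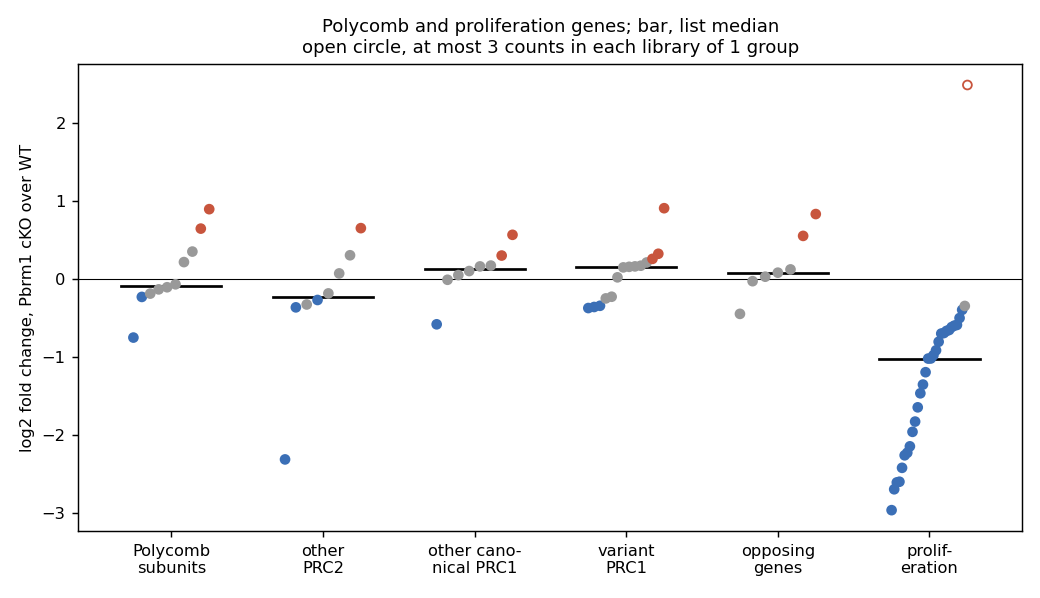
Log2 fold change of Pbrm1 cKO over WT (vertical axis) for each tested gene of the subunits, the other Polycomb lists and the proliferation list with the list median as a bar. Red points were called higher, blue lower and grey neither, and the proliferation list has 28 genes called lower and a median of -1.02. The open circle is E2f2, with at most 3 counts in each WT library.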

How the data were processed

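RNA-seq was measured in 3 WT and 3 Pbrm1 cKO samples, grouped by their labels. The count values were made by the authors before they were deposited: reads were trimmed with cutadapt, mapped to GRCm38 (GRCm38.p5 in the submitters' processing notes) with HISAT2, and counted with featureCounts 1.6.4 in stranded mode over GENCODE release 18 genes. The counts are raw and replicates are separate. The labels describe a total RNA kit with random and poly(T) priming, the study's methods poly(A) selection, so that the RNA classes captured are unsettled. Reads of more than 1 place or gene were left out by default. No subunit shared exon bases with a gene on its own strand.

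Symbols were found for 54079 of 54232 genes. Coordinates of genes are those of the count table, and promoters are from RefSeq (GRCm38.p6). Tests used DESeq2 1.42.0 in R 4.3.3 (Wald test, default filters, Benjamini-Hochberg adjustment over all genes tested, threshold 0.05, unshrunken log2 fold changes of Pbrm1 cKO over WT). Intervals are 95% and single-gene adjusted p-values are from DESeq2. Ratios of subunits per kb used the length given in the count table and exact permutation tests (scipy 1.17.1). Likeness was Pearson's r of log2(normalized count + 1) over genes with a mean of at least 50. Alternatives used edgeR 4.0.16, limma 3.58.1 and other settings, whose effect is given at the end. The code was tested on simulated data. A library with at most 3 counts was treated as at the floor, equal to 0.164 to 0.226 CPM and covering counting error only. The subunits and gene lists were chosen with earlier results of these data known. All 10 subunits are named, as are called genes of the other lists with at most 4 not called per list, called targets, 5 proliferation genes (E2f2, Cdt1, Krt18, Pcgf5, Bcorl1, Asxl2 and Asxl3 were added after their values were seen), up to 2 changed markers per cell type and those near 0, and the 3 genes most like Ezh1 or Ezh2. Some genes were left out of these lists and are not reported here.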

Additional observations from a re-analysis of the deposited data

How the results depend on the processing

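Each subunit was recomputed under 14 alternatives. Ezh1, Jarid2 and Cbx2 kept their direction in all 14 and their calls in 13, 13 and 12, and the median over genes whose normalized counts averaged 10 or more ran from -0.0109 to 0.0102 on the log2 scale. Depth limits Cbx7 most among the subunits and Phf19 among the called Polycomb genes, since their counts are the lowest there. The cause of the changes below was not tested, except that leaving out a library also lowers n.

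Among the subunits, Rnf2 was the least stable call. Its log2 fold change of -0.23 lost the threshold with TMM size factors (-0.224, adjusted p = 0.0642 in DESeq2), with no independent filtering (-0.2344, 0.0585), and under the replicate block (-0.235, 0.179), and it ranged from -0.2534 to -0.211 with a replicate left out, called only without WT replicate 1 (0.0404). The number of subunits lower was then 1 with TMM size factors, 1 with no independent filtering and 1 under the replicate block, and 0 to 2 with a replicate left out. With a replicate left out, the number of subunits higher was 2 to 3, Cbx2 ranged from -0.8368 to -0.6211, Ezh2 from -0.233 to 0.0069, Eed from -0.2559 to -0.09013, Ring1 from -0.2543 to -0.00368, Cbx7 from 0.1911 to 0.4694 and Suz12 from 0.1354 to 0.3514.

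A stricter test asked for changes beyond 0.58 on the log2 scale (threshold 0.1 after adjustment). It left 0 subunits higher and 0 lower (Ezh1 0.6415, Jarid2 0.8908, Rnf2 -0.2344, Cbx2 -0.7557), 699 genes higher and 563 lower over all genes, 0 higher and 1 lower of other PRC2 genes, 0 and 0 of canonical PRC1, 0 and 0 of variant PRC1, 0 opposing genes higher, 0 Polycomb targets lower, and 0 proliferation genes higher and 14 lower.

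For the other lists, edgeR gave 2 other PRC2 genes higher and 2 targets lower, and limma voom gave 2 targets lower. With no independent filtering there were 1 higher and 0 lower canonical PRC1 genes and 1 lower variant PRC1 gene. With the length trend removed there were 1 higher canonical and 1 higher variant PRC1 gene, other PRC2 genes lower shared 2 of 3 members and variant PRC1 genes lower 1 of 3, and Scmh1 (-0.0065), Kdm6a (-0.042) and Usp16 (-0.015), which are not called in the report, changed sign. With a replicate left out, other PRC2 genes lower were 1 to 4, canonical PRC1 genes 1 to 2 higher and 0 to 1 lower, variant PRC1 genes 1 to 3 higher and 1 to 2 lower, targets 0 to 2 lower, and proliferation genes 0 to 1 higher and 25 to 27 lower. Of the single genes recomputed in this way (not all genes of the lists), those uncalled that changed sign, besides Ezh2, were Phf1 (-0.0488 to 0.265), Pcgf2 (-0.0278 to 0.19) and Bap1 (-0.0489 to 0.0861).

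Same-numbered samples were not paired by the labels, and the correlations of their deviations were 0.114, -0.0515 and 0.0028 over 10986 genes. Under the replicate block 1 other PRC2 gene was lower, 1 canonical PRC1 gene higher and 0 lower, 1 variant PRC1 gene higher and 1 lower, and 0 proliferation genes higher, while genes called fell to 2175 higher and 1828 lower.

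The difference between groups in the mean log2 ratio of Rnf2 to Ring1 ranged from -0.252 to 0.0148 with a replicate left out, with a change of sign without WT replicate 2, and that of Bmi1 to Pcgf2 from -0.2583 to -0.06659. Coding length from GENCODE release 21, chosen after seeing the data in place of RefSeq protein length, cannot move a difference of mean log2 ratios between groups. The printed ratios, shares and levels per kb use the length in the count table and would change with another length. Taken alone, TTTCGCGC lay in 0% of the subunits' promoters. Of genes with a promoter window, TTTCCCGC, TTTGGCGC and TTTCGCGC lay in 1.24%, 0.585% and 0.374%.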
